A study of Homo sapiens with 9 samples.

Results

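Daoy cells, a human line established from a medulloblastoma of the cerebellum, were described here by 10 genes that mark neural stem cells and the lineages of the cerebellum. The genes were SOX2, SOX9, NES, MSI1, HES1, ZIC1, ZIC2, ATOH1, ALDH1L1 and SYT1. They were listed by name, and all 10 were matched through their Ensembl identifiers among the 57820 gene identifiers of the count tables. The study lowered DDX3X, an RNA helicase that is recurrently mutated in medulloblastoma, in polyclonal Daoy populations with hairpins from the doxycycline-inducible vector tet-pLKO-puro, and poly(A) RNA of 9 libraries was sequenced.

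The control group held 2 libraries, of which control 1 was the parental line and control 2 a vector control. The shDDX3X group held 3 libraries. The hairpin of shDDX3X 1 and shDDX3X 3 was directed at the 3'-UTR of DDX3X, and that of shDDX3X 2 at its open reading frame. The other 4 libraries came from cells that carried the 3'-UTR hairpin together with a FLAG-tagged DDX3X, either in its wild type form (1 library) or as the mutant G302V, R534H or P568L (1 library each, 3 in the mutDDX3X group). The labels give all libraries the same treatment, 1 µg/ml doxycycline for 72 h, and do not say separately whether the controls received the drug.

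As background, neural stem cells and radial glia are held in an undifferentiated state by transcription factors such as SOX2 and by Notch signalling, whose best known target is the repressor HES1, and they contain the intermediate filament nestin (NES) and the RNA-binding protein Musashi-1 (MSI1). In the cerebellum, ATOH1 specifies the granule neuron progenitors of the rhombic lip, in which the zinc-finger factors ZIC1 and ZIC2 are also expressed, whereas Purkinje cells and interneurons arise from PTF1A-expressing cells of the ventricular zone. SOX9 marks radial and other glia, ALDH1L1 is a folate enzyme used as an astrocyte marker, and SYT1 is the calcium sensor of synaptic vesicles in neurons.

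Each library held 8216568 to 13030572 reads in genes. DDX3X itself stood at 682 and 452 CPM (counts per library scaled to a common total) in the controls and at 249, 139 and 182 CPM in the shDDX3X libraries. It was at 195 CPM in the library labelled wild type and at 197 to 241 CPM in those labelled mutant, so the summed DDX3X counts did not set the libraries labelled as re-expressing far from shDDX3X 3. The numbers in the deposited names fell into a low and a high series: series A held control 1, shDDX3X 1 and shDDX3X 2, and series B held the other 6 libraries. No label ties the series to a sequencing run. Series A had 5.24% to 5.73% unaligned reads and series B 19.6% to 24.02%, and parental against vector cells cannot be told apart from the series among the controls. Series was a term in every test below. The libraries also differed in how levels followed the GC content of transcripts, from a Spearman correlation of -0.71 across 11588 genes in control 1 to 0.58 in shDDX3X 3. The labels do not say that libraries of a group are separate cultures, so each p-value speaks only for the spread among these libraries, and that spread may be technical.

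Of the 10 genes, 9 were expressed above the filter used for testing, at least 1 CPM in at least 2 libraries, and 8 had a mean of at least 5 CPM. On the scale of mean CPM per kilobase of annotated exon, HES1 (15.0 CPM per kilobase) and SOX9 (13.6) led the 10 genes. Their levels lay at percentiles 79.6 and 77.7 of all tested genes. ZIC2 (6.02), MSI1 (4.41), SOX2 (3.87) and ZIC1 (2.69) followed in the middle of the tested genes, between percentiles 58.2 and 38.9. SYT1 (1.27) and NES (1.19) lay lower, at percentiles 25.1 and 24, and ALDH1L1 (0.223) lay at percentile 4.04. Across the 9 libraries the range of HES1 overlapped that of SOX9, that of SYT1 overlapped that of NES, and the ranges of ZIC2, MSI1, SOX2 and ZIC1 overlapped from each to the next, so the order within these groups did not exceed the spread between libraries. On this scale the steps from SOX9 to ZIC2, from ZIC1 to SYT1 and from NES to ALDH1L1 did exceed it, with the first gene above the second in 9 of 9 libraries. The order of the means was the same per kilobase of the longest annotated transcript, where ALDH1L1 was at 0.664. The step from NES to ALDH1L1 did not hold in every library on that scale. In P568L, ALDH1L1 was at 6.44 CPM and NES at 3.68 CPM, with longest transcripts of 4604 and 5558 nt. The other overlaps were not compared on it.

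ATOH1, the factor that defines granule neuron progenitors, was the member that Daoy cells did not detectably express. It had 0 counts in 8 libraries and 1 count in the library labelled wild type. A count of 0 allows a level of up to 0.230 to 0.365 CPM in these libraries (3 counts of the library's total), and this limit covers counting error only. Other genes of the granule neuron lineage were present: 15 of 24 listed genes passed the filter, led per kilobase by TLX3, EN2, MEIS2 and EN1. Genes of committed or maturing granule neurons, named here after their values were seen, were divided. NEUROD1, NEUROD2, BARHL1, BARHL2, CNTN2, RBFOX3 and GABRA6 were under 1 CPM in every library, whereas ETV1 (35.7 CPM on average), NHLH2 (4.28), CBLN1 (1.41) and NHLH1 (0.745) passed the filter.

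Daoy cells carried a broad set of stem cell transcripts beside the members. Of 26 listed neural stem cell and radial glia genes, 23 passed the filter, with the intermediate filament gene VIM, the matrix gene TNC and the inhibitors of differentiation ID3 and ID1 at the highest levels per kilobase, and the Notch effector HES5 at 0 counts in all 9 libraries. Of 15 matched Purkinje and GABAergic genes, 5 passed (RORA, CA8, FOXP2, GAD1 and PAX2), and PTF1A had 0 counts throughout. The filter was passed by 13 of 16 astrocyte genes, 15 of 18 matched neuron genes and 7 of 11 oligodendrocyte genes. Genes outside the neural lineages were not all low: 10 of 10 mesenchymal genes passed, led by FN1 and COL1A1, with a summed level of 15489 to 25458 CPM per library. Only 1 of 7 haematopoietic genes passed, with a summed level of 0.311 to 2.17 CPM.

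**Figure D1:**
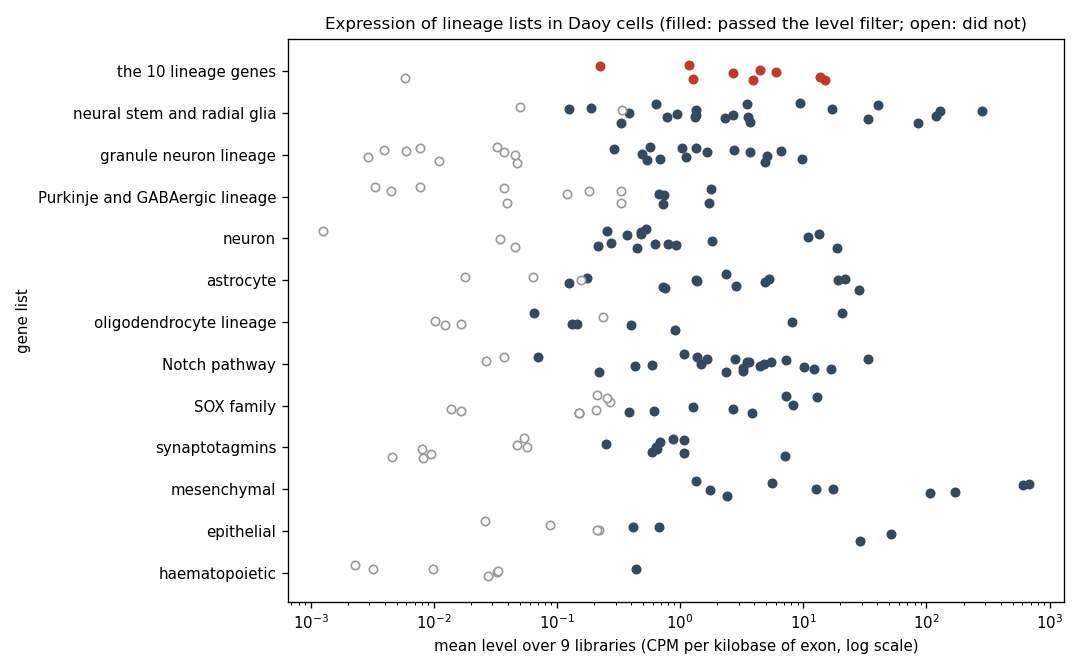
Mean level over 9 libraries in CPM per kilobase of exon (log axis) for each gene of each list, in red for the 10 lineage genes and in dark blue for the other lists; filled points passed the filter and open points did not, and genes without a count in any library are not drawn. ATOH1 is the open point of the top row, far left of the other 9, and the mesenchymal list reaches the highest levels.

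Knockdown of DDX3X called none of the 9 tested members by edgeR's quasi-likelihood test, where 0.675% of all 16155 tested genes were called. At an unadjusted p under 0.05 there were 3 members, ZIC2, NES and SYT1 (22% of all tested genes), and DESeq2 on the same counts called 2, ZIC2 and NES, where it called 8.13% of all tested genes. The shDDX3X libraries all lay above both controls for NES and ZIC2 (2 of 9, against 10.1% of all tested genes) and all below for SYT1 (1 of 9, against 10.8%). The median log2 fold change of the 9 members was -0.02, beside -0.01 for all tested genes. These are bulk libraries, in which fewer cells of a type and less RNA per cell cannot be told apart. In the libraries labelled as re-expressing DDX3X, compared with the same shDDX3X libraries or with each other, edgeR called 0 members and 0 of all tested genes (0%). DESeq2 also called 0 members, where it called 0.0186% of all tested genes for wild type against shDDX3X, 0.142% for the mutants against shDDX3X and 0% for the mutants against wild type.

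**Figure D2:**
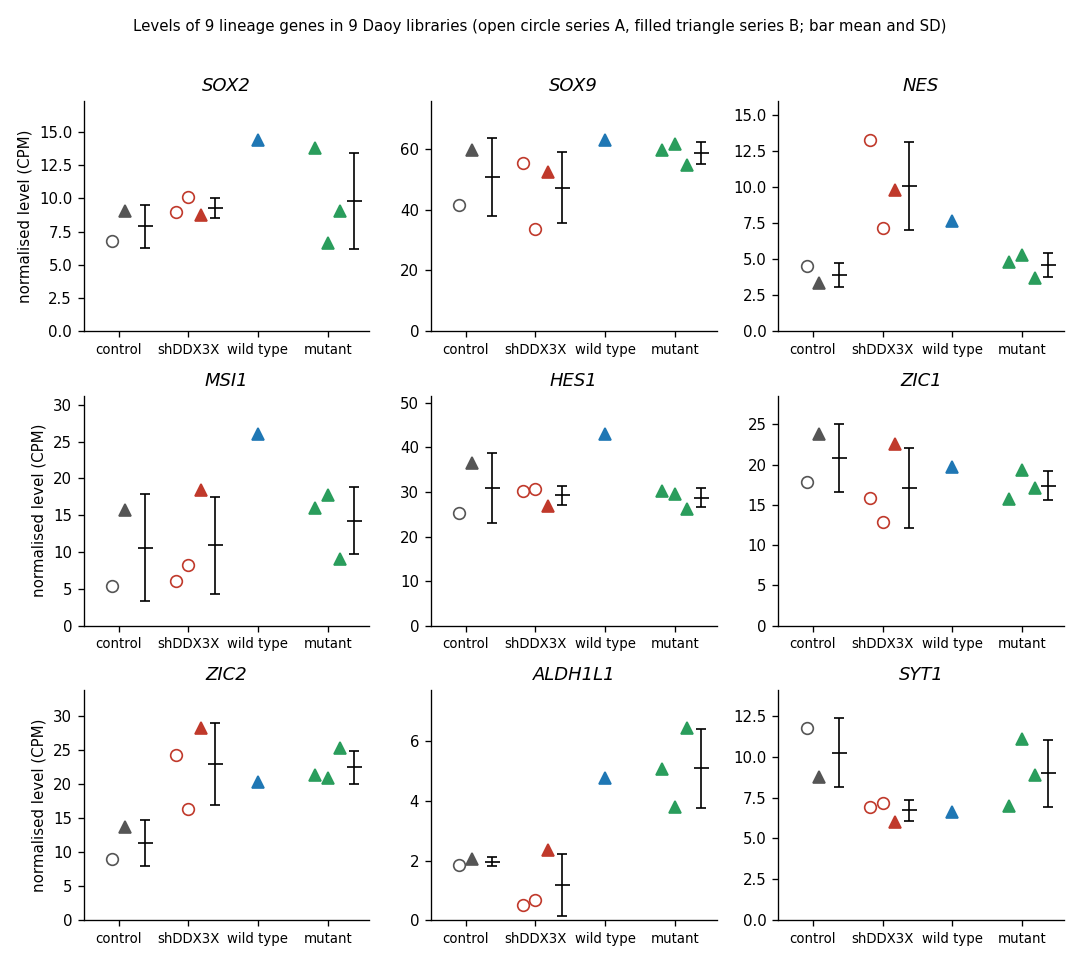
Normalised level (CPM) of the 9 tested lineage genes by group, with 1 point per library, open circles for series A and filled triangles for series B, and the mean with SD beside each group of 2 or 3. NES and ZIC2 are higher in every shDDX3X library than in both controls, SYT1 is lower, and ALDH1L1 is highest in the 4 libraries labelled as re-expressing DDX3X.

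ZIC2 and NES stood highest against the controls after knockdown. ZIC2, a zinc-finger transcription factor of dorsal neural progenitors and granule neurons, was at 8.95 and 13.7 CPM in the controls and at 24.2, 16.4 and 28.2 CPM in shDDX3X 1, 2 and 3. All 3 hairpin libraries were above both controls, with either hairpin and in either series. The fitted level with the hairpin was 2.17 times that of the controls (95% confidence interval 1.51 to 3.13), a log2 fold change of 1.12 ± 0.24 (SE), with an adjusted p of 0.0597 over all tested genes. ZIC2 was called without shDDX3X 2 (adjusted p = 0.0345) and not without shDDX3X 1 (0.131). Leaving out shDDX3X 3 or control 2 gives the same contrast, shDDX3X 1 and 2 against control 1 alone. ZIC2 was called in either case (adjusted p = 0.0306 without shDDX3X 3). Leaving out control 1 leaves shDDX3X 3 against control 2, a log2 difference of 1.04 without a call. Against the control of its own series, the ratio was 2.71 in shDDX3X 1 (95% counting interval 2.17 to 3.39), 1.83 in shDDX3X 2 (1.45 to 2.33) and 2.06 in shDDX3X 3 (1.67 to 2.56). ZIC2 has GC-rich transcripts (58.8% GC, percentile 83.2). Once the trend of levels with GC was taken out of every library, its log2 fold change was 0.76 with an adjusted p of 0.129.

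ZIC2 was above the vector control in every library labelled as re-expressing DDX3X. It was at 20.4 CPM in the library labelled wild type and at 21.4, 20.9 and 25.3 CPM in those labelled G302V, R534H and P568L. Relative to control 2 the ratios were 1.49 (1.18 to 1.87), 1.56 (1.24 to 1.96), 1.53 (1.22 to 1.91) and 1.85 (1.51 to 2.27). All 4 ratios share this 1 control library, so they are not separate results, and their intervals cover counting error only. The share of all tested genes with this pattern was not computed. All 4 libraries lay between control 2 and shDDX3X 3 of their series. The difference from shDDX3X was -0.51 ± 0.33 on the log2 scale for wild type (adjusted p = 1) and -0.36 ± 0.25 for the mutants (adjusted p = 0.841).

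NES encodes nestin, the intermediate filament of neural stem cells. Its level was 4.51 and 3.35 CPM in the controls and 13.3, 7.19 and 9.79 CPM in shDDX3X 1, 2 and 3. Every hairpin library was again above both controls, and shDDX3X 2, with the hairpin against the open reading frame, was the lowest of the 3. The fitted ratio was 2.51 (95% confidence interval 1.46 to 4.35), a log2 fold change of 1.33 ± 0.35 with an adjusted p of 0.0877. It was called without shDDX3X 2 (adjusted p = 0.0424). Within its series, shDDX3X 1 was at 2.95 times its control (2.17 to 4.05), shDDX3X 2 at 1.59 times (1.13 to 2.26) and shDDX3X 3 at 2.93 times (1.94 to 4.50). NES lies at percentile 84.7 of GC content. After the same correction, control 1 moved from 4.51 to 7.47 CPM, just under the 7.64 CPM of shDDX3X 2, and the log2 fold change was 0.92 with an adjusted p of 0.184.

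In uncorrected levels, nestin transcripts were below the range of the shDDX3X libraries in the mutant libraries and within it in the wild type library. After GC correction the wild type library, at 6.597 CPM, was also below that range, whose lowest library was shDDX3X 2 at 7.64 CPM. The mutant libraries were then still below the wild type library. The levels and ratios that follow are uncorrected. NES was at 7.68 CPM in the library labelled wild type, 2.29 times control 2 (1.49 to 3.58). It was at 4.83, 5.27 and 3.68 CPM in the libraries labelled G302V, R534H and P568L. These were 1.44 (0.890 to 2.35), 1.58 (0.999 to 2.51) and 1.10 (0.694 to 1.76) times control 2. The counting intervals all included 1, which does not show that the levels equal that of the control. The 3 mutant libraries were all below the 3 shDDX3X libraries, 1 of the 9 members with this pattern against 6.81% of all tested genes. The log2 difference of mutants from shDDX3X was -1.002 ± 0.37 (unadjusted p = 0.0229, adjusted p = 0.831), and that of wild type from shDDX3X was -0.25 ± 0.48 (adjusted p = 1).

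**Figure D3:**
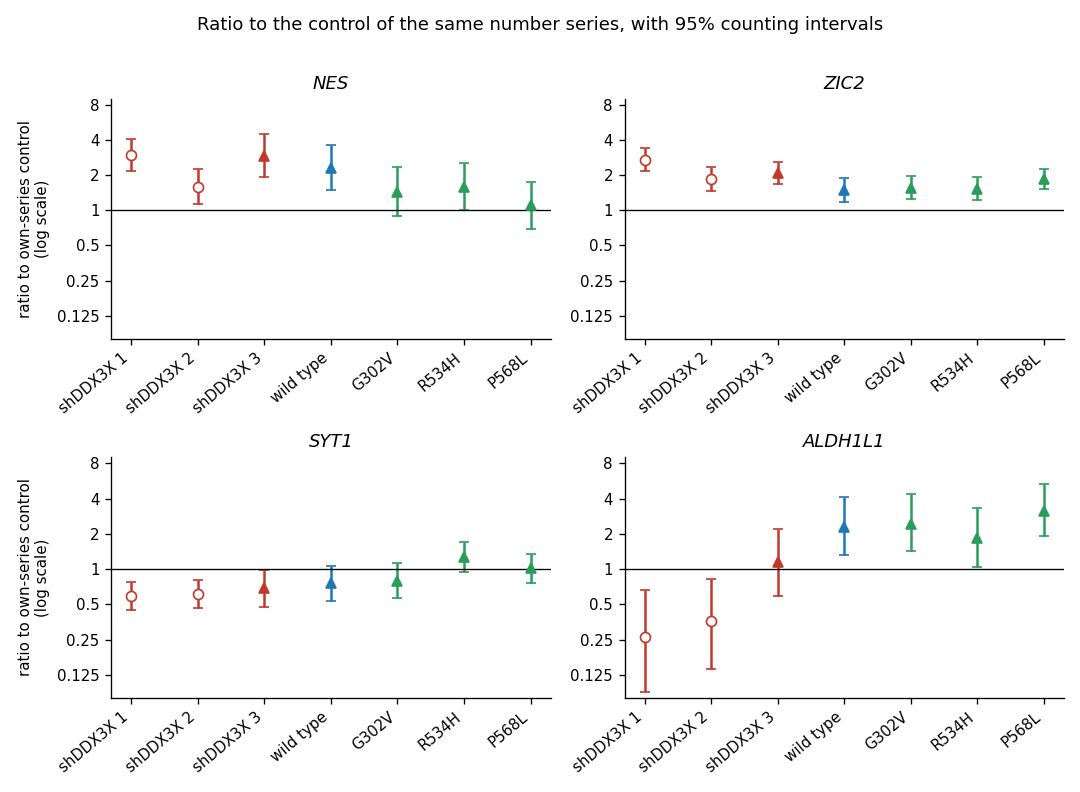
Ratio of each library to the control of its own series (log axis) for NES, ZIC2, SYT1 and ALDH1L1, with 95% intervals for counting error only; open circles are series A and triangles series B. NES and ZIC2 lie above 1 in all 3 shDDX3X libraries and SYT1 below 1, while ALDH1L1 is at 0.266 and 0.358 in shDDX3X 1 and 2 and at 1.14 in shDDX3X 3.

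SOX2 and SOX9, the other progenitor transcription factors, showed no such separation. SOX2 was at 6.77 and 9.05 CPM in the controls, at 9.01, 10.1 and 8.73 CPM in the shDDX3X libraries, at 14.4 CPM in the library labelled wild type and at 13.8, 6.64 and 9.04 CPM in G302V, R534H and P568L. The groups overlapped, and the mutant libraries spread more widely (9.81 ± 3.62 CPM, SD, n = 3) than the shDDX3X libraries (9.28 ± 0.74, n = 3). Its log2 fold change with knockdown was 0.26 ± 0.34 (adjusted p = 0.699), with a 95% confidence interval of -0.49 to 1.01. SOX9 was at 41.5 and 59.6 CPM in the controls, at 55.4, 33.8 and 52.4 CPM in the shDDX3X libraries, at 63.0 CPM in wild type and at 59.6, 61.5 and 54.6 CPM in the mutants. Its lowest level was in shDDX3X 2, which was at 0.610 times shDDX3X 1 of the same series (0.538 to 0.692). These 2 libraries differed more for SOX9 than counting error allows, as they did for NES (0.541, 0.411 to 0.707) and ZIC2 (0.677, 0.562 to 0.814). With 1 library for each hairpin in that series, hairpin and library cannot be told apart. The 2 controls also differed for SOX9, with control 2 at 1.44 times control 1 (1.28 to 1.62). The log2 fold change of SOX9 with knockdown was -0.02 ± 0.22 (adjusted p = 0.969), with an interval of -0.52 to 0.47. Of 17 other listed SOX genes, 9 passed the filter, led per kilobase by SOX4, SOX11, SOX12 and SOX13. None was called in the knockdown comparison (2 at an unadjusted p under 0.05, against 22% of all tested genes).

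MSI1, an RNA-binding protein that maintains neural stem cells, had the widest range of uncorrected levels among the members with a mean of at least 5 CPM. It was at 5.45 and 15.7 CPM in the controls, at 6.11, 8.19 and 18.4 CPM in shDDX3X 1, 2 and 3, at 26.0 CPM in wild type, and at 15.9, 17.7 and 9.12 CPM in G302V, R534H and P568L. The 3 series A libraries were the 3 lowest, and the highest library was 4.78 times the lowest. The difference of series B from series A was 1.43 ± 0.30 on the log2 scale (adjusted p = 0.0239). MSI1 was the single member called for the series, as were 11.3% of all tested genes. Its log2 fold change with knockdown was 0.32 ± 0.31 (adjusted p = 0.595). The transcripts of MSI1 are GC-rich (59.2% GC, percentile 84.5), and after GC correction the highest library was 3.39 times the lowest, less than the 4.73 times of NES, and the knockdown difference was -0.065.

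The 3 genes whose levels followed MSI1 most closely over the 9 libraries were WRAP53 (Pearson r of log2 CPM 0.99), PHF1 (0.98) and TUBB2B (0.97), among 11587 genes with a mean of at least 5 CPM. These correlations are a description of 9 libraries that share the series and GC differences above. TUBB2B, a tubulin of developing neurons, was at 38.3 CPM in control 1 and at 107 CPM in the library labelled wild type, the lowest and the highest library for MSI1 as well.

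HES1 had the highest mean level per kilobase, but by annotated exon length it was above SOX9 in only 5 of 9 libraries. It was at 25.4 and 36.4 CPM in the controls, at 30.2, 30.8 and 26.8 CPM in the shDDX3X libraries, at 43.0 CPM in wild type and at 30.3, 29.5 and 26.3 CPM in the mutants. The shDDX3X libraries lay between the 2 controls. The log2 fold change with knockdown was -0.04 ± 0.21 (adjusted p = 0.935), with an interval of -0.51 to 0.43. Within series the ratios to the control went apart: 1.19 (1.02 to 1.38) in shDDX3X 1, 1.21 (1.04 to 1.41) in shDDX3X 2 and 0.735 (0.621 to 0.870) in shDDX3X 3. The difference of the knockdown effect between the series was -0.71 ± 0.36 on the log2 scale, with an adjusted p of 0.435, where 3.19% of all tested genes were called.

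HES1 is the textbook target of Notch signalling, in which a ligand such as JAG1 releases the intracellular part of a NOTCH receptor to act with the DNA-binding protein RBPJ. The core of the RBPJ motif, TGGGAA on either strand, was searched in the RefSeq promoter windows (GRCh38.p14, 250 bases before to 50 after each start), which held 8 of the 10 members and not SOX9 or MSI1. Of 35116 windows, 24% held at least 1 match and 3.8% at least 2. The window of HES1 and 1 of 2 windows of ALDH1L1 held 2. The HES1 stretch is shown because it carries both matches, in capitals, from 89 to 60 bases before the start at chr3:194136059-194136088 on the plus strand.
HES1: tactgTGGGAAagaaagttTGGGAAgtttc
A match is a description of the letters and no record of binding. The other ALDH1L1 window and that of SYT1 held 1 match each, and those of SOX2, NES, ZIC1, ZIC2 and ATOH1 held none.

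EdgeR called none of the other genes of the Notch pathway for knockdown against control. Of 25 listed genes 22 passed the filter. Of these, 20 had a positive and 2 a negative log2 fold change (median 0.77, beside -0.01 for all tested genes), with 8 at an unadjusted p under 0.05 (22% of all tested genes). The ligand JAG1 was at 31.1 and 60.2 CPM in the controls and at 173, 312 and 112 CPM in shDDX3X 1, 2 and 3. All 3 hairpin libraries were above both controls, as for 10.1% of all tested genes. Its log2 fold change was 2.03 ± 0.47 (adjusted p = 0.068). For LFNG, a glycosyltransferase that modifies NOTCH receptors, the log2 fold change was 2.13 ± 0.51 (adjusted p = 0.0684). The size depended on the series and the GC trend: the median log2 ratio of the 22 genes was 1.15 in shDDX3X 1 and 1.36 in shDDX3X 2 against control 1, which these share, and 0.24 in shDDX3X 3 against control 2, where 13 were higher and 9 lower. After GC correction the median over all libraries was 0.35, with 18 genes positive and 4 negative. LFNG was then at 1.46, and JAG1 was at 2.01, beside 2.03 before the correction.

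ZIC1, the partner of ZIC2 in granule neuron progenitors, did not share the ZIC2 pattern. It was at 17.8 and 23.8 CPM in the controls, at 15.9, 12.9 and 22.5 CPM in the shDDX3X libraries, at 19.7 CPM in wild type and at 15.7, 19.3 and 17.2 CPM in the mutants. Every hairpin library and every library labelled as re-expressing DDX3X was below the control of its own series, at ratios from 0.659 in G302V to 0.946 in shDDX3X 3, but the groups overlapped. The series B ratios all share control 2, the library with the highest ZIC1 level, so they are not separate results. The log2 fold change with knockdown was -0.21 ± 0.20 (adjusted p = 0.586), with an interval of -0.67 to 0.24. ZIC1 shares 2.59% of its exon length with ZIC4 on the opposite strand, and the unstranded counts cannot separate reads there. Of the 15 tested granule neuron genes 9 had positive and 6 negative log2 fold changes with knockdown (median 0.29). None was called and 4 had an unadjusted p under 0.05 (22% of all tested genes). The largest were TLX3, a homeobox gene, at 1.96 ± 0.63 (adjusted p = 0.124), and ETV1, an ETS factor of maturing granule neurons, at -1.07 ± 0.31 (adjusted p = 0.104). In series A, TLX3 was at 1.71 CPM in control 1 and at 26.5 and 13.8 CPM in shDDX3X 1 and 2, and in series B at 15.4 CPM in control 2 and 21.6 CPM in shDDX3X 3. After GC correction its log2 fold change was 0.92.

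ALDH1L1 was the weakest member with detectable reads, 6 to 84 per library. It was at 1.87 and 2.07 CPM in the controls and at 0.496, 0.669 and 2.36 CPM in shDDX3X 1, 2 and 3, which rests on 6, 8 and 20 reads. The 2 hairpin libraries of series A were below both controls and the one of series B above both. Against their own control the ratios were 0.266 (0.0888 to 0.667), 0.358 (0.139 to 0.824) and 1.14 (0.587 to 2.21). The pooled log2 fold change was -0.82 ± 0.49 (adjusted p = 0.366). ALDH1L1 lies at percentile 78.7 of GC content. After GC correction shDDX3X 3 was at 2.06 CPM, between control 2 (1.92) and control 1 (2.66) and no longer above both. The pooled log2 fold change was then -1.07 (edgeR adjusted p = 0.295). The knockdown effect differed between the series by 1.85 ± 0.84 on the log2 scale, with an unadjusted p of 0.0485 and an adjusted p of 0.363.

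All 4 libraries labelled as re-expressing DDX3X held more ALDH1L1 than the other 5 libraries. The level was 4.77 CPM in the library labelled wild type and 5.07, 3.79 and 6.44 CPM in those labelled G302V, R534H and P568L. ALDH1L1 was the single member with this pattern, which 2.22% of all tested genes showed. The log2 difference from shDDX3X was 1.49 ± 0.63 for wild type (unadjusted p = 0.0399, adjusted p = 1) and 1.59 ± 0.52 for the mutants (unadjusted p = 0.0117, adjusted p = 0.831). Without shDDX3X 3 these were 2.86 and 2.97, and edgeR then called the mutants (adjusted p = 0.0394). The remaining shDDX3X libraries were then all of series A and the mutants all of series B. Only the controls linked the series in that fit, and these also differed as parental and vector cells. A larger effect of the mutants cannot be read from it. Within series B, the ratio to shDDX3X 3 was 2.02 (1.16 to 3.64) for wild type, 2.15 (1.23 to 3.86) for G302V, 1.61 (0.907 to 2.93) for R534H and 2.73 (1.66 to 4.69) for P568L. The log2 difference of the mutants from the wild type form was 0.10 ± 0.55 (interval -1.12 to 1.32, adjusted p = 1), which does not show that they act alike. The annotated exons of ALDH1L1 overlap the antisense genes ALDH1L1-AS1 and ALDH1L1-AS2 over 1.83% and 1.7% of their length.

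Other astrocyte genes were divided. Of 13 tested, 4 had positive and 9 negative log2 fold changes with knockdown (median -0.17, none called), and 6 had positive and 7 negative ones for the mutants against shDDX3X (median -0.09, none called). The list was led per kilobase by the transcription factor NFIX (180 CPM on average), the gap junction gene GJA1 (74.8), the glutamine synthetase gene GLUL (172) and the chaperone gene CLU (34.7). GFAP, the intermediate filament of astrocytes, was at 1.51 CPM on average, and S100B was under 1 CPM in all 9 libraries. GFAP and S100B were named after their values were seen.

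SYT1, the synaptic vesicle calcium sensor, was lower in every hairpin library than in the controls. It was at 11.7 and 8.76 CPM in the controls and at 6.94, 7.19 and 6.02 CPM in shDDX3X 1, 2 and 3. The highest of the 3, shDDX3X 2, lay below the lower control. The fitted level was 0.635 times that of the controls (95% confidence interval 0.418 to 0.966), a log2 fold change of -0.65 ± 0.27 with an unadjusted p of 0.0367 and an adjusted p of 0.197. Within series the ratios were 0.591 (0.447 to 0.777), 0.612 (0.464 to 0.803) and 0.687 (0.477 to 0.980). SYT1 has the lowest GC content of the members, at 41.6%, and its log2 fold change was -0.51 after GC correction (adjusted p = 0.299).

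The libraries labelled as re-expressing DDX3X divided for SYT1. It was at 6.63 CPM in the library labelled wild type and at 6.997 CPM in G302V, close to the hairpin libraries, and at 11.1 CPM in R534H and 8.89 CPM in P568L, at or above the vector control. The log2 difference of the mutants from shDDX3X was 0.64 ± 0.31 (adjusted p = 0.831) and that of wild type 0.20 ± 0.40 (adjusted p = 1). Of 16 other synaptotagmins 9 passed the filter. In the knockdown comparison 3 had positive and 6 negative log2 fold changes (median -0.60). None was called and 2 had an unadjusted p under 0.05 (22% of all tested genes). The largest were SYT12 at -1.50 ± 0.42 (adjusted p = 0.0943) and SYT13 at -0.99 ± 0.31 (adjusted p = 0.119).

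The wild type library was the highest of the 9 for 4 of the 9 tested members, SOX2, SOX9, MSI1 and HES1, a position that 7.23% of all tested genes held. For SOX2 and SOX9 the next library was close, at 13.8 CPM in G302V against 14.4 CPM and at 61.5 CPM in R534H against 63.0 CPM. Against the 3 shDDX3X libraries 5 members were higher without overlap, these 4 and ALDH1L1 (24% of all tested genes), and none was lower (22.2%). None was called by edgeR or by DESeq2, and ALDH1L1 alone had an unadjusted p under 0.05 (2.93% of all tested genes). The log2 difference was 0.47 ± 0.29 for HES1, 0.56 ± 0.46 for SOX2, 0.45 ± 0.42 for MSI1 and 0.18 ± 0.31 for SOX9 (adjusted p = 1 for each). The comparison rests on 1 wild type library, which the test assumes to vary as the other groups do.

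In the mutant libraries 1 of 9 members was higher than in shDDX3X without overlap, ALDH1L1 (7.82% of all tested genes). None was called by edgeR or by DESeq2, and 2 members had an unadjusted p under 0.05, ALDH1L1 and NES (5.53% of all tested genes). Set beside the wild type library, the 3 mutants were all lower for 6 members (SOX2, SOX9, NES, MSI1, HES1 and ZIC1; 25% of all tested genes) and all higher for 2 (ZIC2 and SYT1; 24%). Those with an unadjusted p under 0.05 (1.95% of all tested genes) were MSI1, at -0.88 ± 0.36 on the log2 scale, and HES1, at -0.59 ± 0.25. Both had an adjusted p of 1, and neither edgeR nor DESeq2 called a member. Among the mutants, MSI1 in P568L was at 0.579 times control 2 (0.453 to 0.739), while G302V and R534H were at 1.01 (0.797 to 1.28) and 1.12 (0.900 to 1.41).

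**Figure D4:**
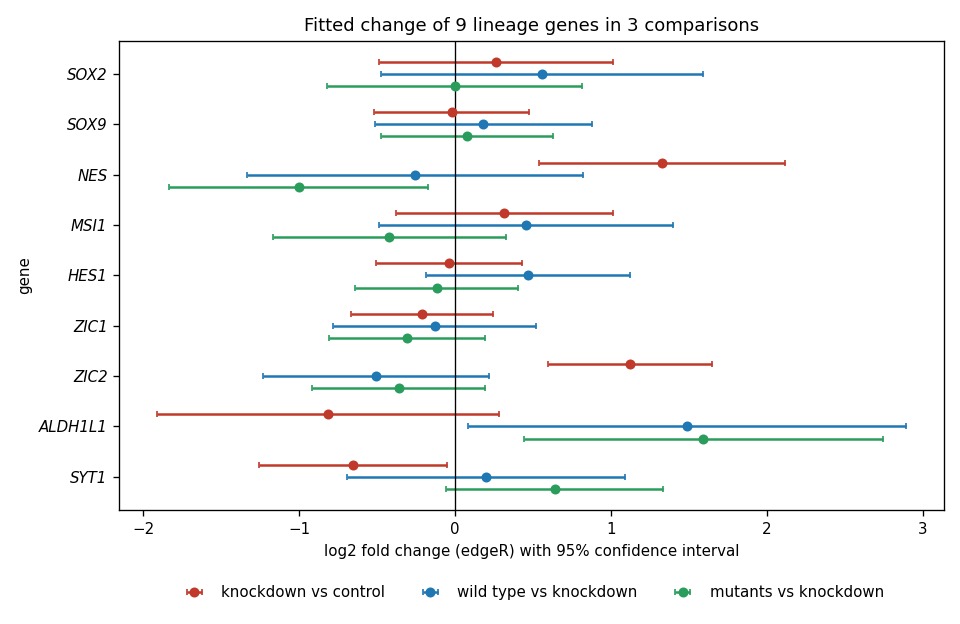
Fitted log2 fold change with 95% confidence interval for the 9 tested lineage genes in the knockdown against control, wild type against knockdown and mutants against knockdown comparisons. The knockdown intervals of ZIC2, NES and SYT1 exclude 0 without adjustment over all genes, and no member passed the adjusted threshold in any of the 3 comparisons.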

How the data were processed

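Raw read counts per gene, whole numbers, were deposited by the authors in 1 table per library. Per the labels' protocols, libraries were unstranded TruSeq preparations of poly(A) RNA read as 100 nt single ends. Per the submitters' processing notes, HISAT2, HTSeq, bcl2fastq and DESeq2 were among the tools and hg19 (GRCh37) was the build; versions and roles: not given in the sources used here. The 5 HTSeq summary lines per table (20.3% to 35.8% of reads) stayed out of library sizes. Symbols came from GENCODE 29 by identifier without version (52338 of 57820, 90.52%), used also for exon length, GC content and overlaps, with no coordinates because its build differs.

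Groups came from the labels. Genes reaching 1 CPM in 2 or more libraries (16155) were tested in R 4.3.3 with edgeR 4.0.16 (TMM, robust quasi-likelihood). Terms were group and number series, all 9 libraries shared 1 estimate of spread, and Benjamini-Hochberg adjusted p-values were called at 0.05. The edgeR fit was tested on simulated counts drawn without a series difference or GC trend, so that test does not cover these. Ratios of single libraries carry exact 95% binomial intervals, for counting error only. Alternatives were DESeq2 1.42.0, RLE size factors, no filter, no series term, fewer libraries, GC correction and the replicate block. No library repeated another of its group: chi-square over degrees of freedom was 11.2 to 96.3.

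All 10 genes are named whatever their level. Of each list the text names the called genes, up to 4 with the highest level per kilobase and up to 2 with the largest fold change at a mean of at least 5 CPM, and exceptions are marked. The genes and lists were chosen with earlier results of these data known.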

Additional observations from a re-analysis of the deposited data

How the results depend on the processing

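The count of members called for knockdown against control, 0, was 2 (ZIC2 and NES) with DESeq2, which called 1313 genes, and 2 without the filter on low counts, which called 1920 of 33139 genes against 109 of 16155. Leaving out 1 library at a time gave 0 to 2: ZIC2 was called without control 2 or without shDDX3X 3, and ZIC2 and NES without shDDX3X 2. For mutants against shDDX3X it gave 0 to 1, with ALDH1L1 called without shDDX3X 3 (log2 difference 2.97, adjusted p = 0.0394). With the series term, leaving out control 2 or shDDX3X 3 compares shDDX3X 1 and 2 with control 1 alone. These are therefore not separate checks. Without shDDX3X 3, mutants of series B are set against shDDX3X libraries of series A, linked only by the controls. The cause of these moves was not tested further. All other alternatives left 0 members called in the 4 comparisons.

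Signs turned for members with small differences. For knockdown against control, SOX2 was -0.053 and ALDH1L1 0.19 in series B alone, and MSI1 was -0.065 with the GC trend removed. Without the series term, wild type against shDDX3X was 0.21 for ZIC1 and -0.021 for SYT1, and mutants against shDDX3X 0.075 for SOX2, 0.39 for MSI1 and 0.028 for ZIC1. Mutants against shDDX3X were 0.16 for SOX2 and 0.098 for HES1 with the compared groups alone, 0.16 and 0.093 in series B alone, and 0.0030 for SOX2 with the GC trend removed. Leaving out 1 library gave ranges that cross 0 for knockdown against control in SOX2 (-0.053 to 0.50), SOX9 (-0.24 to 0.11), HES1 (-0.44 to 0.26) and ALDH1L1 (-1.66 to 0.19). For wild type against shDDX3X the ranges crossed 0 in SOX9 (-0.022 to 0.29), NES (-0.35 to 0.013), HES1 (-0.024 to 0.68) and ZIC1 (-0.20 to 0.033). For mutants against shDDX3X they did so in SOX2 (-0.39 to 0.20), SOX9 (-0.13 to 0.19) and HES1 (-0.61 to 0.098), and for mutants against wild type in ALDH1L1 (-0.11 to 0.28). For knockdown against control, the ends -0.053 for SOX2, -0.44 for HES1 and 0.19 for ALDH1L1 equal the log2 ratios of shDDX3X 3 to control 2. That pair alone is compared without control 1. The cause was not tested further.

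Replicate numbers 1 and 2 of control and shDDX3X did not pair the libraries (correlation of deviations 0.40 for number 1 and -0.29 for number 2). With the replicate block, 0 members and 0 genes were called, ZIC2 was 0.85, NES 1.34, MSI1 -0.40 and HES1 0.0057. The 3 other list genes called for knockdown, RORA, COL1A1 and ESRP1, kept their direction under every alternative and lost the call without the series term, with the compared groups or series B alone, under the block, and without control 1, shDDX3X 1 or any 1 mutant library. By CPM without length, the order was SOX9, HES1, ZIC2, ZIC1, MSI1, SOX2 and then as per kilobase. Depth limits ALDH1L1 most, with 6 reads in its lowest library, and no call can be made for ATOH1.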

Other observations

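RORA, the orphan nuclear receptor that Purkinje cells need to mature, was the single gene of the neural lists that passed the test for knockdown against control. It stood at 61.6 and 32.6 CPM in the controls and at 23.8, 23.998 and 14.5 CPM in the shDDX3X libraries, and the log2 fold change was -1.28 ± 0.18 (edgeR adjusted p = 0.0319). After GC correction it was -1.07 (adjusted p = 0.0183), and without control 1 it was -1.17 with no call (adjusted p = 0.321). The libraries labelled wild type, G302V, R534H and P568L were at 29.2, 25.6, 31.5 and 33.0 CPM, all above the 3 hairpin libraries. Against shDDX3X, the log2 difference was 1.07 ± 0.26 for wild type (adjusted p = 1) and 1.11 ± 0.22 for the mutants (adjusted p = 0.636), so no call was made in those comparisons.

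Among the genes outside the neural lists, the collagen gene COL1A1 rose with knockdown (log2 fold change 1.49 ± 0.25, edgeR adjusted p = 0.0447). The mesenchymal list it belongs to was divided, with 4 positive and 6 negative log2 fold changes (median -0.40). COL1A1 was at 1665 CPM in control 1 and at 4712 CPM in control 2. The epithelial splicing regulator ESRP1 fell by 2.51 on the log2 scale (edgeR adjusted p = 0.0447, at a mean of 2.02 CPM). After GC correction the log2 fold changes were 0.95 for COL1A1 (edgeR adjusted p = 0.0478) and -2.39 for ESRP1 (0.0349). Without control 1, which leaves shDDX3X 3 against control 2, neither was called. Of the genes that mark the molecular subgroups of medulloblastoma, 4 of 5 passed the filter for the WNT subgroup and 4 of 5 for the SHH subgroup, of which ATOH1 was the one below it. SFRP1, at 84.2 CPM on average, was the highest SHH subgroup gene per kilobase. For group 3 and group 4, 5 of 6 genes each passed, with summed levels of 10.2 to 13.8 CPM and 12.6 to 49.2 CPM per library. None of these subgroup genes was called for knockdown against control.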
